A study of Mus musculus with 18 samples.

Results

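The nuclear-encoded respiratory chain genes supply the mitochondrion with cytochrome c and most subunits of complexes I to V. Members were taken by symbol from the count tables, without pseudogenes, and 86 symbols matched. Of these, 82 had at least 10 counts over the 18 libraries and form the group described here, out of 15810 genes with that many counts. They comprise 35 genes of complex I, 4 of complex II, 9 of complex III, 16 of complex IV, 17 of complex V and the cytochrome c gene Cycs. The assignment follows the symbol, and it places in complex V the genes Atp5s and Atp5sl, which RefSeq names Dmac2l and Dmac2 and of which Dmac2 is known as a complex I assembly factor, and in complex IV Cox7a2l, known for joining complexes into supercomplexes. The 4 symbols left out were Cox7b2 with 3 counts, Cox8c with 1 count, and Cox8b and Ndufa4l2 with 0 counts. Just inside the limit stood Cox7a1 with 10 counts and Cox4i2 with 30 counts.

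Libraries were made from lineage-negative bone marrow progenitors of BALB/c mice, in 3 sorted populations named HSC (haematopoietic stem cells), MPP1 and MPP4 (multipotent progenitors). Dnmt1 encodes the maintenance DNA methyltransferase. The mutants are described in the series as carrying a specific hypomorphic Dnmt1 mutation modelled on fish missense alleles, although the genotype field writes dnmt1-/-, and the controls are wild type. HSC had 3 mutant and 3 control libraries, MPP1 had 2 and 2, and MPP4 had 4 and 4. The labels give neither the age of the animals nor the substituted residue, and do not say whether 1 library is 1 animal. The p-values between mutants and controls therefore reflect how far single libraries of a group lie apart within sequencing batches, which may be technical. The labels name 3 sequencing batches, A, B and C, and the column names carry 8 ID numbers, most of which recur across populations. Those of MPP4 mutant 2 and MPP4 control 2 occur in MPP4 alone. P-values between populations come from differences within ID numbers. They reflect how far these differences vary between ID numbers, which may be technical too. HSC mutant 1 and MPP4 mutant 1 share an ID number, and both are in batch A.

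Electrons from NADH enter the chain at complex I and those from succinate at complex II, pass through complex III and cytochrome c, and reduce oxygen at complex IV. The proton gradient built up on the way drives complex V, the ATP synthase. Complexes I, III, IV and V each combine subunits of the mitochondrial genome with nuclear ones, whereas complex II is nuclear throughout. Haematopoietic stem cells are known for a low reliance on oxidative phosphorylation compared with their cycling progeny. Several complex IV subunits exist as paired isoforms, one in most tissues and one restricted to muscle, lung, testis or heart.

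Library totals lay between 354642 and 1943562 counts (median 745850.5). The members took between 0.745% and 2.42% of them. The progenitor genes Kit and Cd34 were counted in all 18 libraries and Slamf1 in 15. Marker genes of erythroid cells, neutrophils and B cells together exceeded 10000 CPM (counts scaled to the library total) in 6 libraries. The highest was MPP4 mutant 2 with 221108 CPM, and the others were HSC mutant 1, HSC control 1, MPP1 control 2, MPP4 mutant 3 and MPP4 control 4, between 13067 and 41605 CPM. In bulk libraries, fewer cells of a type and less RNA per cell cannot be told apart.

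Levels below are normalised CPM, that is CPM after edgeR's TMM scaling over the 18 libraries. The method counts 1 tag at the 3′ end of each captured molecule, so levels were not divided by gene length. Complex I members summed to 4112 ± 1170.9 normalised CPM, complex IV members to 4063 ± 1198 and complex V members to 4153 ± 1342 (SD, n = 18 libraries each). Complex III summed to 1504 ± 506 and the 4 subunits of complex II to 469 ± 154. Cycs, the only member that carries electrons outside a complex, had 52.3 ± 28.2 normalised CPM. Dnmt1 itself was counted in every library, at 118 to 309 normalised CPM in HSC mutants and 97.8 to 278 in HSC controls, 223 to 289 in MPP1 mutants and 289 to 297 in MPP1 controls, and 230 to 321 in MPP4 mutants and 239 to 391 in MPP4 controls. Mutants and controls overlapped in each population, and its RNA level does not check the labels of a missense mutation.

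Members of 1 complex were not counted at 1 level. In complex I, Ndufc2 was highest at 219.8 ± 46.9 normalised CPM and Ndufs5 lowest at 12.8 ± 7.76 (SD, n = 18 here and in the rest of the paragraph). Sdha, the flavoprotein that oxidises succinate, led complex II at 173 ± 34.2, and the membrane anchor Sdhc was lowest at 77.1 ± 17.1. In complex III, the hinge protein Uqcrh had 396 ± 122 normalised CPM and cytochrome c1, Cyc1, had 87.6 ± 47.7. Cox7c led complex IV at 490.4 ± 118, and the muscle and heart isoform Cox7a1 was lowest at 0.646 ± 1.26. Atp5b, the catalytic beta subunit, led complex V at 606 ± 264, and Atp5l was lowest at 12.4 ± 9.85. For Atp5l, 70.1% of the 50-base words at its annotated 3′ ends also occur in other gene models, so its level is uncertain. The same holds for Cox7c (65.2%), Atp5h (59.2%), Atp5g2 (55.5%) and Ndufs3 (53.0%), the others above 50%. Ndufs5 was close to that limit (47.8%), so its low level is uncertain too. Of the 81 members checked, 53 shared no such word.

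**Figure D1:**
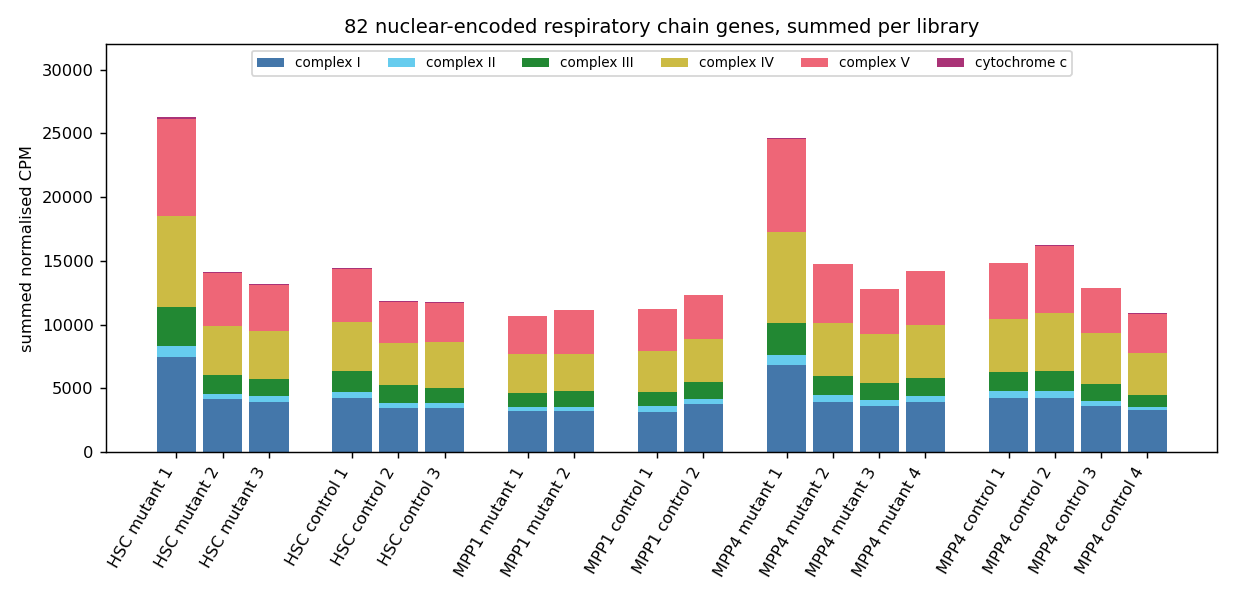
Summed normalised CPM of the 82 members in each of the 18 libraries, stacked by complex, with Dnmt1 mutants left of controls within each population. HSC mutant 1 and MPP4 mutant 1 reach 26254 and 24626, and the other 16 bars lie between 10668 and 16231.

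A pair of mutant libraries stood apart from the other 16. Summed over the 82 members, HSC mutant 1 had 26254 normalised CPM and MPP4 mutant 1 had 24626. The other mutants had 14136 and 13173 in HSC, and 14791, 12823 and 14232 in MPP4. The controls had 14435, 11824 and 11751 in HSC, and 14860, 16231, 12898 and 10893 in MPP4. Without those 2 libraries, mutants and controls overlapped in MPP4, and in HSC the highest of the 5 remaining sums was a control. HSC mutant 1 held the highest HSC value of 76 of the 82 members, and MPP4 mutant 1 the highest MPP4 value of 71 of them. At the low end, MPP4 control 4 held the lowest MPP4 value of 40 members. It is among the 6 libraries rich in other cells' markers, with 35864.5 CPM of them.

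The elevation covered every complex. In HSC mutant 1, complex I summed to 7452 normalised CPM, complex III to 3043, complex IV to 7127 and complex V to 7616, where the other 5 HSC libraries stayed at or below 4238, 1679, 3825 and 4161 in the same order. In MPP4 mutant 1 the sums were 6859, 2501, 7139 and 7258 normalised CPM, above the other 7 MPP4 libraries in each complex. Some gene groups outside the respiratory chain were also highest in these libraries. Ribosomal protein genes summed to 227000.0 normalised CPM in HSC mutant 1 and 260770 in MPP4 mutant 1, against 94829 to 143948 in the other 16 libraries. Enzymes of the citric acid cycle summed to 2335 and 2072 normalised CPM, against 1083 to 1897 in the other 16. Messenger RNAs of the mitochondrial genome summed to 27291 in HSC mutant 1 and 37208 in MPP4 mutant 1, against 12338 to 27165. Regulators of mitochondrial biogenesis were not highest there: they summed to 828 in HSC mutant 1 and 819 in MPP4 mutant 1, against 678 to 893 in the other 16. Erythroid markers summed to 14600.5 normalised CPM in HSC mutant 1, against 725 to 981.1 in the other 5 HSC libraries, and to 416 in MPP4 mutant 1, within the range of the other 7 MPP4 libraries. The progenitor markers were at their lowest in HSC mutant 1, with 1019 normalised CPM against 1282 to 1849 in the other HSC libraries, and stood at 1829 in MPP4 mutant 1. What sets these libraries apart was not tested.

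**Figure D2:**
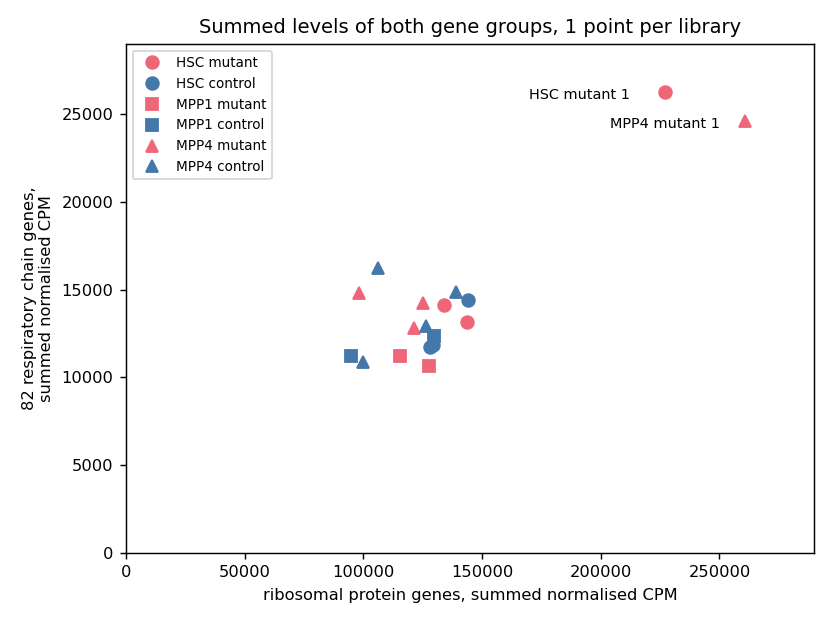
Summed normalised CPM of the 82 members (vertical axis) against that of ribosomal protein genes (horizontal axis), 1 point per library, Dnmt1 mutants in red and controls in blue. HSC mutant 1 and MPP4 mutant 1 lie at the upper right on both axes, apart from the other 16 libraries, whose mutants and controls overlap.

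In HSC, the comparison of mutants with controls asks whether the Dnmt1 mutation altered the expression of the respiratory chain in stem cells. No member passed an adjusted p of 0.05 in edgeR's quasi-likelihood test with Benjamini-Hochberg adjustment over all 9147 genes tested, of which 0.241% passed. The fitted values nevertheless leaned to one side. Of the 78 members tested, 73 had a positive log2 change, compared with 51.3% of all genes, and their median was 0.47, compared with 0.01 over all genes. Other gene groups leaned the same way: 78 of 79 ribosomal protein genes were positive (median 0.33) and 12 of 13 citric acid cycle genes (0.38). Of the biogenesis regulators, 12 of 17 were positive (0.03). An unadjusted p under 0.05 was reached by 31 members in edgeR and by 27 in DESeq2, where 10% of all genes reached it in edgeR. The members not tested were Atp5l, Cox4i2, Cox6a2 and Cox7a1, which were too low in HSC.

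The values were alike across the complexes. Median log2 changes in HSC mutants were 0.45 for complex I, 0.42 for complex II, 0.47 for complex III, 0.43 for complex IV and 0.51 for complex V, and Cycs had 0.67. The smallest p-value belonged to Atp5g2, 1 of 3 genes for the membrane ring subunit c of ATP synthase. It had 39.5, 16.3 and 4.95 normalised CPM in HSC mutants and 13.0, 3.64 and 2.7 in HSC controls, a log2 change of 1.65 (SE 0.54, adjusted p = 0.289). Its groups overlapped, and its level is uncertain because of the shared 3′ sequence given above. Uqcr10, a small subunit of complex III, had 289.8, 164 and 109 normalised CPM in mutants and 119, 118 and 56.6 in controls (log2 change 0.81, SE 0.27, adjusted p = 0.295). Ndufv1, the NADH-binding subunit of complex I, had 179, 75.6 and 61.0 in mutants and 66.8, 45.5 and 59.3 in controls (0.79, SE 0.28, adjusted p = 0.326). For both genes HSC mutant 1 was far above the other mutants, which lay near or among the controls.

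The HSC change was larger in batch A than in batch C. The pair in batch A are also the HSC libraries with most RNA of other cells, with 16192 CPM of their markers in HSC mutant 1, mainly erythroid, and 37084 CPM in HSC control 1, mainly of B cells, against 1083 to 1215 CPM in the 4 libraries of batch C. The part of that RNA in the difference was not tested. Within batch A, with 1 mutant and 1 control, 75 of the 78 tested members were higher in the mutant, with a median difference of 0.85 in log2 normalised CPM. In batch C, with 2 mutants and 2 controls, 67 of 78 were higher and the median difference was 0.27. Without HSC mutant 1 the fitted median was 0.26, with 66 of 77 positive, and without HSC control 1 it was also 0.26, with 67 of 78 positive. The count of members that passed stayed at 0 in both. It was 3 without HSC control 2, namely Ndufb9 (1.38, adjusted p = 0.0181), Ndufa12 (1.39, adjusted p = 0.0253) and Uqcr10 (1.26, adjusted p = 0.0372). Without HSC mutant 3 it was 1, Atp5g1 (1.21, adjusted p = 0.0433). The shares of all genes that passed in these fits are not given here, so the counts cannot be set against them.

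**Figure D3:**
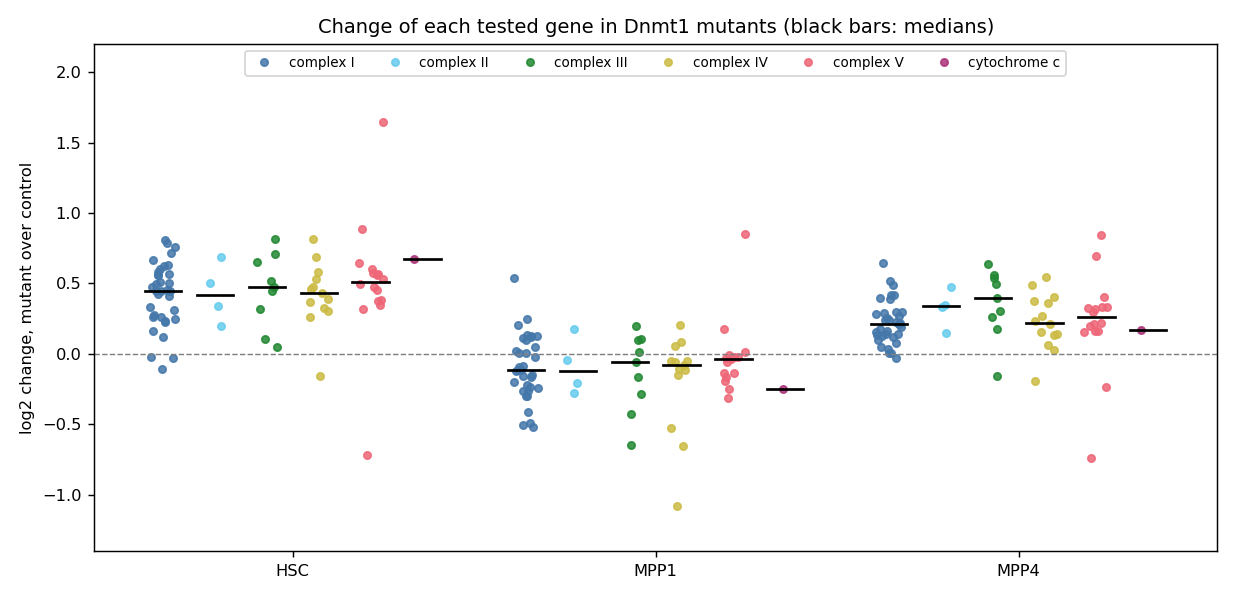
Log2 change of each tested member in Dnmt1 mutants over controls in HSC (78 members), MPP1 (76) and MPP4 (79), coloured by complex, with a black bar at each complex's median. Most points lie above 0 in HSC and MPP4 and below 0 in MPP1, and no member passes an adjusted p of 0.05.

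In MPP4 the same comparison also gave no member at an adjusted p of 0.05, where 0.0852% of the 9392 genes tested passed. Positive log2 changes were fitted for 74 of the 79 tested members, compared with 49.5% of all genes, with a median of 0.23. Ribosomal protein genes were positive for 79 of 79 (median 0.30), citric acid cycle genes for 9 of 13 (0.14) and biogenesis regulators for 7 of 17 (-0.05). An unadjusted p under 0.05 was reached by 8 members in edgeR and 5 in DESeq2, compared with 7.11% of all genes in edgeR. By complex, the median was 0.21 for complex I, 0.34 for complex II, 0.40 for complex III, 0.22 for complex IV and 0.26 for complex V.

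Ndufb7, an accessory subunit of complex I, had the smallest p-value in MPP4. Its levels were 255, 176, 159 and 146 normalised CPM in MPP4 mutants and 126, 108, 109 and 121 in MPP4 controls (log2 change 0.65, SE 0.21, adjusted p = 0.361). Uqcrc1, a core subunit of complex III, had 226, 168, 66.7 and 112.2 in mutants and 147, 134, 60.2 and 35.2 in controls (0.64, SE 0.23, adjusted p = 0.517). Cox5a, a nuclear subunit of complex IV, had 598, 294, 308 and 326 in mutants and 299, 307, 224 and 184 in controls (0.54, SE 0.22, adjusted p = 0.578). Both of these genes overlapped between the groups.

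The batches differed in MPP4. The members' median difference between mutant and control was 0.71 in batch A (1 mutant, 1 control; 78 of 79 higher in the mutant), -0.14 in batch B (1 and 1; 29 of 79 higher) and 0.21 in batch C (2 and 2; 59 of 79 higher). The batch B mutant is MPP4 mutant 2, the library with the most erythroid RNA. Batch C holds MPP4 mutant 3 and MPP4 control 4, which also exceeded 10000 CPM of other cells' markers. The part of other cells' RNA in these differences was not tested. Without MPP4 mutant 1 the fitted median fell to 0.06, with 55 of 80 members positive, and without MPP4 control 1 to 0.06, with 54 of 79 positive. Without the 3 MPP4 libraries over 10000 CPM of other cells' markers it was 0.48, with 77 of 80 positive and still no member past the threshold.

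In MPP1 the members did not lean upward. MPP1 has no library of the ID number that stood apart, and whether this bears on the lean was not tested. All its libraries are of batch C, where 67 of 78 members in HSC and 59 of 79 in MPP4 were higher in mutants. No member passed, where 0.225% of the 8004 genes tested did, and 24 of the 76 tested members had a positive log2 change, with a median of -0.09. An unadjusted p under 0.05 was reached by 3 members in edgeR and 0 in DESeq2, compared with 4.86% of all genes in edgeR. All 3 belong to complex IV, which had 13 of the 76 tested members, and none was near the adjusted threshold. Cox6b1, the widely expressed form of subunit VIb, had 141 and 208 normalised CPM in MPP1 mutants and 258 and 300.1 in MPP1 controls (log2 change -0.65, SE 0.25, adjusted p = 0.843). Ndufa4, first assigned to complex I and now placed in complex IV, had 168 and 185 in mutants and 261 and 252 in controls (-0.53, SE 0.23, adjusted p = 0.991). Cox6b2, the testis form of subunit VIb, had 10.6 and 20.8 in mutants and 35.6 and 33.1 in controls (-1.08, SE 0.48, adjusted p = 0.994). Each group held only 2 libraries, and the members' median turned to 0.02 without MPP1 control 2. That library had 41605 CPM of other cells' markers, against 1748 to 3170 CPM in the other MPP1 libraries. It held the highest MPP1 value of 35 of the 82 members. The part of other cells' RNA in the MPP1 difference was not tested.

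The differences between the mutant effects of the populations were themselves tested in the model of all 18 libraries. No member passed for MPP4 minus HSC (0.0283% of 10613 genes did), for MPP1 minus HSC (0.0%) or for MPP4 minus MPP1 (0.0%). The median member difference was -0.08 for MPP4 minus HSC, -0.37 for MPP1 minus HSC and 0.25 for MPP4 minus MPP1. An unadjusted p under 0.05 was reached by 1, 7 and 3 of the 80 members in that order.

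Cox6b2 had the smallest p-value in the first of these tests and in the second. Its mutant effect was lower in MPP4 than in HSC by a log2 difference of -0.95 (SE 0.42) and lower in MPP1 than in HSC by -1.51 (SE 0.55), with an adjusted p of 1 in both. The next by p-value in MPP4 minus HSC were the complex I subunit Ndufc2 (-0.45) and the complex IV subunit Cox7b (-0.41). In MPP1 minus HSC they were Atp5s (1.72), which RefSeq names Dmac2l, and Cox6b1 (-0.74). The smallest p-values in MPP4 minus MPP1 were those of Atp5j, a stalk subunit of ATP synthase (0.85), Cyc1 (0.95) and Cox6b1 (0.65). All of these had an adjusted p of 1.

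Between populations, averaged over genotypes, the respiratory chain was level between MPP4 and HSC apart from a few genes. The median log2 difference of the 80 tested members was -0.01, with 38 positive. In the same test 10.9% of all 10613 genes were higher in MPP4 and 9.15% were lower. Among the members 2 were higher, both of complex IV (Ndufa4 and Cox6a2), of which Cox6a2 passed the filter on low counts only through MPP4, and 4 were lower (Cox6b2 of complex IV, Ndufa5 and Ndufb10 of complex I, and Uqcrh of complex III). No member of complexes II or V passed.

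Ndufa4 lies on the minus strand of chromosome 6 (11900292 to 11907497, GENCODE vM21 on GRCm38, the assembly also called mm10). It had 588, 307, 418 and 560.1 normalised CPM in MPP4 mutants and 413, 599, 612 and 477 in MPP4 controls, against 301, 242 and 229 in HSC mutants and 176, 248 and 210.2 in HSC controls. Each of the 8 MPP4 libraries was above each of the 6 HSC libraries and the 4 MPP1 libraries. The log2 difference between MPP4 and HSC was 1.14 (SE 0.12, adjusted p = 6.54e-09 in edgeR), and it was positive in 6 of 6 ID numbers that have both populations. It passed under all 17 alternatives, between 1.03 and 1.27. Those without the ID number of MPP4 mutant 2 (1.13) or of MPP4 control 2 (1.14) could hardly differ from the main fit. Each of these ID numbers has a single library, which adds nothing to a difference taken within ID numbers. Apart from Cox6a2, the highest value among the other tested members was 0.41, that of Atp5g2.

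Cox6a2, the heart and skeletal muscle form of subunit VIa, was counted almost solely in MPP4. It had 33, 0, 9 and 9 counts in MPP4 mutants and 8, 101, 15 and 4 in MPP4 controls. The 6 HSC libraries held 1 count together, in HSC mutant 1, and the 4 MPP1 libraries held 0. Relative to library size, MPP4 exceeded HSC 109-fold (95% counting interval 19.2 to 4314), and MPP1 at least 19.6-fold with a floor of 3 counts over the MPP1 group. Without MPP4 control 2, which holds most of the counts, the ratio to HSC was 62.7 (10.9 to 2507) and the bound against MPP1 was 11.3. Such intervals cover counting error only. The gene passed the filter on low counts through MPP4 alone, so it could hardly have been lower there. It passed in edgeR (adjusted p = 7.01e-07 against HSC, 1.29e-04 against MPP1) and did not in DESeq2 (adjusted p = 0.193 and 0.443). It was too low for a test with the stricter filter and in batch C alone, and against MPP1 it did not pass with no replicate block. The MPP4 library without a count, mutant 2, is the one with 221108 CPM of other cells' markers. Cox6a2 lies on chromosome 7 (128205435 to 128206387, minus strand) inside Itgad on the other strand, and the sources do not state whether counting used strand, so reads of the pair may not be told apart.

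**Figure D4:**
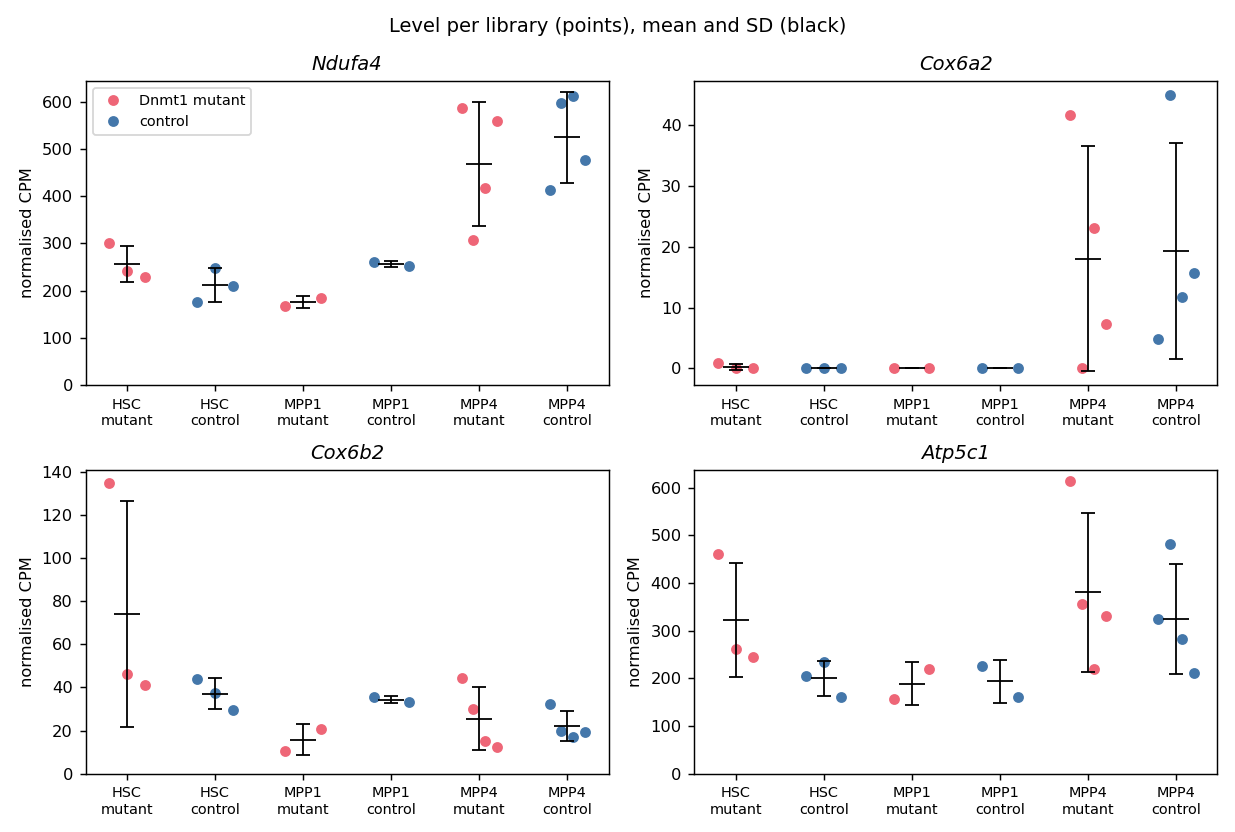
Normalised CPM of Ndufa4, Cox6a2, Cox6b2 and Atp5c1 per library, with mean and SD in black and Dnmt1 mutants left of controls in each population. Ndufa4 lies between 307 and 612 in MPP4 and at or below 301 in HSC and MPP1, Cox6a2 is near 0 outside MPP4, and Cox6b2 has its highest value, 135, in HSC mutant 1.

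Cox6b2 was lower in MPP4 than in HSC. It had 44.3, 30.1, 15.4 and 12.3 normalised CPM in MPP4 mutants and 32.3, 19.6, 17.2 and 19.5 in MPP4 controls, against 135, 46.4 and 41.2 in HSC mutants and 44.0, 37.3 and 29.6 in HSC controls. The populations overlapped by a few libraries, but within an ID number MPP4 was lower in 6 of 6. The log2 difference was -1.21 (SE 0.21, adjusted p = 3.93e-05 in edgeR). It was -0.73 (adjusted p = 0.178) over controls alone and -1.25 without the ID number of HSC mutant 1.

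The other lower members moved less. Ndufa5, a complex I subunit of the matrix arm, had 91.0, 53.7, 105 and 68.8 normalised CPM in MPP4 mutants and 81.7, 59.7, 119 and 35.2 in MPP4 controls, against 181, 127.2 and 134 in HSC mutants and 108, 105 and 151 in HSC controls. Its log2 difference was -0.60 (SE 0.17, adjusted p = 0.0126), with MPP4 lower in 5 of 6 ID numbers. Ndufb10, of the membrane arm of complex I, differed by -0.46 (SE 0.15, adjusted p = 0.0259) and Uqcrh by -0.37 (SE 0.13, adjusted p = 0.0473). In Uqcrh reads may also come from Gm12854 on the other strand. The calls were not equally stable: of 17 alternatives Ndufa5 passed in 12, Ndufb10 in 7 and Uqcrh in 5. Each count includes the alternatives without the ID number of MPP4 mutant 2 or MPP4 control 2, which nearly repeat the main fit. Without the ID number of HSC mutant 1, Ndufa5 (adjusted p = 0.0511) and Ndufb10 (0.0735) no longer passed. Without the 6 libraries over 10000 CPM of other cells' markers, none of these 3 passed, and Ndufa5 fell to -0.33, Ndufb10 to -0.18 and Uqcrh to -0.30. Single ID numbers also ended the call of Ndufa5 (that of HSC mutant 2), of Ndufb10 (those of HSC control 1 and HSC mutant 3) and of Uqcrh (those of HSC control 1, HSC control 3, HSC mutant 2 and HSC mutant 3).

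**Figure D5:**
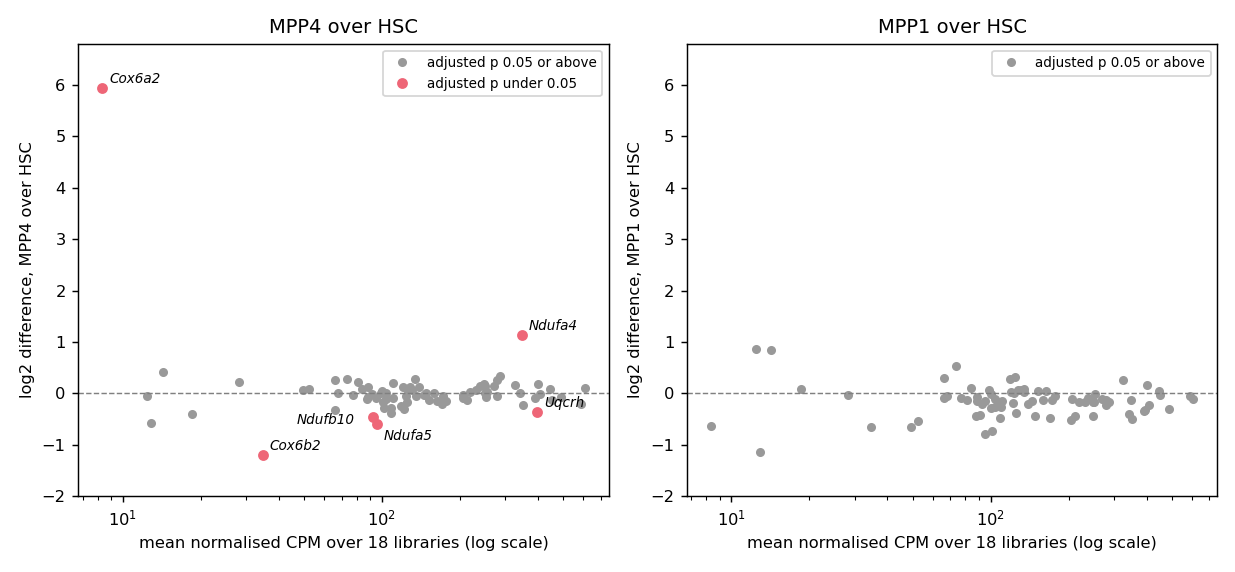
Log2 difference of each of the 80 tested members, MPP4 over HSC (left) and MPP1 over HSC (right), against the mean normalised CPM over 18 libraries on a log axis. The 6 members with an adjusted p under 0.05 in MPP4 over HSC are named and red, and none passes in MPP1 over HSC.

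Against MPP1, 3 members were higher in MPP4, where 5.72% of all genes were, and 0 were lower, where 5.42% were. They were Ndufa4 (log2 difference 1.27, SE 0.15, adjusted p = 9.98e-08), Cox6a2, which again passed the filter only through MPP4 and did not pass in DESeq2, and Atp5c1, the gamma subunit that turns in the centre of ATP synthase. Of the 80 tested members 56 were positive, with a median of 0.13. Atp5c1 had 614, 357, 221 and 331 normalised CPM in MPP4 mutants and 324, 482, 282 and 211 in MPP4 controls, against 157 and 220.4 in MPP1 mutants and 225 and 162 in MPP1 controls. The populations overlapped at about that highest MPP1 level (log2 difference 0.51, SE 0.15, adjusted p = 0.0243), and MPP4 was higher in 4 of 4 ID numbers. Atp5c1 passed in 8 of 17 alternatives, among them those without the ID number of MPP4 mutant 2 or MPP4 control 2, which nearly repeat the main fit. Leaving out any 1 of the ID numbers of HSC control 1, 2 or 3 or HSC mutant 2 or 3 ended its call, with values from 0.47 to 0.53. Without the ID number of HSC control 2, the complex III core subunit Uqcrc1 was lower in MPP4 than in MPP1 (-0.97, adjusted p = 0.0142).

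MPP1 and HSC were the closest pair over all genes, with 0.367% of them past the threshold, and no member passed. Of the 80 tested members 20 were positive, with a median of -0.13. An unadjusted p under 0.05 was reached by 19 members in edgeR and 13 in DESeq2, compared with 8.37% of all genes in edgeR. The smallest p-values belonged to Uqcr11, a small complex III subunit (-0.73, SE 0.20, adjusted p = 0.135), Ndufa5 (-0.80, SE 0.22, adjusted p = 0.136) and Ndufa3 (-0.51, SE 0.16, adjusted p = 0.230). Ndufa5 had 79.8 and 74.9 normalised CPM in MPP1 mutants and 64.5 and 81.0 in MPP1 controls, all below the 6 HSC libraries given above. Uqcr11 passed at -1.01 (adjusted p = 0.00995) without the ID number of HSC control 3. The median was 0.06 over controls alone and -0.32 over mutants alone. These comparisons of MPP4, MPP1 and HSC share libraries, so their values are not independent.

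Promoter sequence is shown for the members that differed between populations and have an entry in the RefSeq promoter table (GRCm38.p6), from 250 bases before to 50 bases after the gene start, 5′ to 3′ on the gene's strand. The printed regions are chr6:11907401-11907700 for Ndufa4, chr7:4753045-4753344 for Cox6b2, chr6:24527641-24527940 for Ndufa5, chr17:24724374-24724673 for Ndufb10, chr4:116075021-116075320 for Uqcrh and chr2:10080461-10080760 for Atp5c1, all on the minus strand. They are shown because NRF1, ETS-family factors and YY1 are known activators of respiratory chain genes, and capitals mark a match to the NRF1 core or the ETS core searched here.
Ndufa4: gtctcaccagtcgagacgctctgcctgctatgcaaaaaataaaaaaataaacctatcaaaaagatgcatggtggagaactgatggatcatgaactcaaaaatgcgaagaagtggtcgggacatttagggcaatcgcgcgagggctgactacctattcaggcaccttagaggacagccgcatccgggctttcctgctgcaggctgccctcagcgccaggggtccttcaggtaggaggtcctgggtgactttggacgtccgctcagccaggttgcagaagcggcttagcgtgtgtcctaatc
Cox6b2: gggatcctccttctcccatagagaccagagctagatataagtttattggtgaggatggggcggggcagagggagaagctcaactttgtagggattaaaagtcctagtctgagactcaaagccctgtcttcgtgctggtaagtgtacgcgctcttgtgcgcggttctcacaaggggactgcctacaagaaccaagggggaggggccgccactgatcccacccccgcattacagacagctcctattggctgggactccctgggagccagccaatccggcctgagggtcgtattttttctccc
Ndufa5: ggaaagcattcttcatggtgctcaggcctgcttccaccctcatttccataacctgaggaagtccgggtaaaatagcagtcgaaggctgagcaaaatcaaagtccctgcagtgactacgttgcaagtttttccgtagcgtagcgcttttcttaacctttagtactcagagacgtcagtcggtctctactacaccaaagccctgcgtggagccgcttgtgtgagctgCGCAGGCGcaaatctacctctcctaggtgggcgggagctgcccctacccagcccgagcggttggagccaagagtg
Ndufb10: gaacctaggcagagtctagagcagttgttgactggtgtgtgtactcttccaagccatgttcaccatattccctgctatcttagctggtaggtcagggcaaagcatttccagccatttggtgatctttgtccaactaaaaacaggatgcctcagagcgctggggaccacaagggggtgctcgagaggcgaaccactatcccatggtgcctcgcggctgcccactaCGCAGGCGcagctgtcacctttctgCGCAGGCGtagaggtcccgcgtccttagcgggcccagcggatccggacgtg
Uqcrh: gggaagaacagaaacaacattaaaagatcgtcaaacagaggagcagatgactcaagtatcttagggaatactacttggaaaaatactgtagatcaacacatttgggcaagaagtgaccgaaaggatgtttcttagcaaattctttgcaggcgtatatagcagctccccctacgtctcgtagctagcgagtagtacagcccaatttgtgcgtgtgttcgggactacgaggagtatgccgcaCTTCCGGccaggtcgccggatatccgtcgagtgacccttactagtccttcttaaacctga
Atp5c1: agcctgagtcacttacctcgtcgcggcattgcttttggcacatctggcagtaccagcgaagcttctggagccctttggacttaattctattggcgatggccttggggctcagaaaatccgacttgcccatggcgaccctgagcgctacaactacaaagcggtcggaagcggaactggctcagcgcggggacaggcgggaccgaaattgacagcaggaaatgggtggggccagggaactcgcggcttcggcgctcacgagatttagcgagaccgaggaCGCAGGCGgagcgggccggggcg
Ndufa4 and Cox6b2 hold none of the motifs searched, with 14 and 10 CpG dinucleotides. Ndufa5 holds 1 match to the NRF1 core and Ndufb10 holds 2, and Uqcrh holds 1 match to the ETS core, with 15 CpG dinucleotides in each of the 3. Atp5c1 holds 1 match to the NRF1 core close to its gene start and 27 CpG dinucleotides.

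Over the group, 68 of the 82 members had an entry in that table. For members the entry closest to the GENCODE gene start was used, and for all genes the first listed entry, so the choices differ. The NRF1 core, CGCANGCG on either strand, occurred in 25 of the 68 (36.8%), compared with 8.42% of 27018 promoters of the same length, 1 per gene. The ETS core, CCGGAAG on either strand, occurred in 15 (22.1%), compared with 9.12% of all, and the YY1 core, ATGGCGG on either strand, in 9 (13.2%), compared with 4.19%. The members' promoters held a median of 19 CpG dinucleotides, against 7 over all promoters. Members with and without the NRF1 core had like values in the mutants: the median log2 change in HSC was 0.54 over 24 members with it and 0.46 over 42 without it, and in MPP4 it was 0.19 and 0.26 in that order. A match is a description of letters and not of a bound site.

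The tissue-restricted isoforms of complex IV were rare beside their common partners. Over the 18 libraries, Cox4i2, the lung form, had 30 counts against 7420 of Cox4i1. Cox7a1 had 10 counts against 2768 of Cox7a2. Cox7b2 had 3 counts against 4189 of Cox7b, Cox8c had 1 and Cox8b 0 against 6979 of Cox8a, and Ndufa4l2 had 0 against 6237 of Ndufa4. Cox6b2 was the exception, with 582 counts against 4545 of Cox6b1, and was counted in all 18 libraries. Its share of the Cox6b1 and Cox6b2 pair was highest in HSC mutant 1 at 18.8% (95% Wilson interval 16.3 to 21.7) and lowest in MPP4 mutant 4 at 4.53% (2.77 to 7.34). Cox6a2 reached 9.10% of the Cox6a1 and Cox6a2 pair in MPP4 control 2 (7.55 to 10.9) and 5.51% in MPP4 mutant 1 (3.95 to 7.64).

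Genes that build or feed the chain were described from lists chosen with earlier results of these data known. Of 55 listed assembly factors, none passed in any mutant comparison. Between MPP4 and HSC, 51 were tested and 3 passed, below the shares of 10.9% higher and 9.15% lower over all genes: Cmc2, a complex IV assembly factor, was higher (0.59, SE 0.18, adjusted p = 0.0195), and the copper chaperone Cox17 (-0.50, SE 0.14, adjusted p = 0.00628) and the mitochondrial RNA stabiliser Lrpprc (-0.51, SE 0.15, adjusted p = 0.0132) were lower. Against MPP1, Cmc2 was higher in MPP4 (0.76, adjusted p = 0.0270) and Ttc19, a complex III factor, was lower (-0.85, adjusted p = 0.0183). Of the biogenesis regulators 1 passed, Gabpb1, a subunit of the ETS-family factor GABP, higher in MPP4 than in HSC (0.47, SE 0.16, adjusted p = 0.0325). None of the 13 citric acid cycle genes passed in any comparison.

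Of 12 substrate carriers, Slc25a31, which exchanges ADP and ATP in sperm and their precursors, passed between mutants and controls in HSC (adjusted p = 4.41e-05) and MPP4 (adjusted p = 0.0169). It had 34.5 ± 5.60 normalised CPM in HSC mutants and 0 in all HSC controls (SD, n = 3 each), and 27.2 ± 18.5 in MPP4 mutants and 0 in all MPP4 controls (n = 4 each). Since only the mutants carried it past the filter in HSC and MPP4, it could hardly have been lower in them. In MPP1, where it was not tested, it had 26.7 ± 15.2 normalised CPM in mutants and 0 in controls (SD, n = 2 each). For messenger RNAs of the mitochondrial genome, which encode the remaining subunits, 7 of 13 were tested. mt-Nd2 was lower in MPP4 than in HSC (-0.49, adjusted p = 0.00986) and than in MPP1 (-0.68, adjusted p = 0.00445). mt-Nd5 was lower in MPP4 than in MPP1 (-1.18, adjusted p = 2.83e-06) and higher in MPP1 than in HSC (0.88, adjusted p = 0.00638), and mt-Nd6 was lower in MPP4 than in MPP1 (-0.91, adjusted p = 0.00284). All 3 encode complex I subunits. Of all genes, 9.15% were lower in MPP4 than in HSC and 5.42% lower than in MPP1, and 0.367% passed between MPP1 and HSC.

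In the authors' deposited tables, no member had an adjusted p under 0.05 in any population. Few genes did at all: of 29717 listed, 8 in HSC, 7 in MPP1 and 13 in MPP4. The median log2 change in the authors' deposited table was 0.51 over 81 members in HSC, -0.18 over 81 in MPP1 and 0.21 over 82 in MPP4. Its sign was that of the fit used here for 75 of 78 members in HSC, 60 of 76 in MPP1 and 77 of 79 in MPP4.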

How the data were processed

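Messenger RNA of 18 libraries was measured by CEL-Seq2 on cells sorted into lysis buffer, per the labels' protocols. The deposited tables hold estimated counts per gene symbol: 100% of the 1557 large values lay on the grid of a correction for collisions among 4096 molecular tags, which adds 30.3% to the highest member value (2276 for 1746 tags). Genome build mm10, R 3.4.0 and DESeq2 are named per the submitters' processing notes; the sources used here do not name the aligner, the counter or the gene models. The authors' deposited tables give, per the file headers, a mean signal, a log2 fold change and its standard error, a test score, and the p-value before and after adjustment.

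Members and lists were chosen with earlier results of these data known. Named members are those past an adjusted p of 0.05 (up to 10 per direction), otherwise the 3 smallest p-values per comparison, the highest and lowest of each complex, the restricted isoforms and those at the count limit. From each list up to 2 genes per direction were named.

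Counts were used as deposited in edgeR 4.0.16 (R 4.3.3; TMM, filterByExpr with a minimum count of 10, quasi-likelihood test), with batch and genotype per population (genotype alone in MPP1) and, between populations, 1 model of all 18 that blocks on the ID number. P-values were Benjamini-Hochberg adjusted over all genes tested. The scripts were tested on simulated data. DESeq2 1.42.0, other scalings, filters and designs were alternatives. Between mutants and controls of the same replicate number, deviations from the group means correlated at 0.494, 0.2 and 0.224 in HSC. The reported fits did not take these numbers as pairs in any population, and a replicate block was an alternative. Promoters and gene positions come from RefSeq (GRCm38.p6) and GENCODE vM21.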

Additional observations from a re-analysis of the deposited data

Results flagged for a closer look

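In groups of 4 libraries, the highest and lowest values of each named member and complex sum were compared with the group's range, and 9 of 54 groups tested held a value further from its neighbour than Dixon's 95% limit allows. Chance flags about 1 in 20 groups, and the groups share libraries. MPP4 mutant 1 was the far value in 6 of them: 24626 normalised CPM for all members (the next MPP4 mutant had 14791), 6859 for complex I (next 3977), 7139 for complex IV (next 4166), 598 for Cox5a (next 326), 473 for Cox7b (next 219) and 431 for Cox6b1 (next 286). Among MPP4 controls, Uqcr10 was low in control 3 with 109 normalised CPM (next 129), Cox7b was low in control 4 with 203 (next 266), and Cox6b2 was high in control 1 with 32.3 (next 19.6).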

How the results depend on the processing

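Leaving out 1 library at a time, the members that passed between mutants and controls numbered 0 to 3 in HSC and stayed at 0 in MPP1 and MPP4, and the MPP1 median ran from -0.18 to 0.0232. For MPP4 against HSC, in place of 6 members, 3 passed in DESeq2, 2 in batch C alone, 2 over controls alone and 3 without the 6 libraries over 10000 CPM of other cells' markers, an alternative chosen after seeing the data. Between MPP1 and HSC, in place of 0, the count was 2 with no filter, 1 without those 6 libraries, and 0 to 1 without each ID number in turn. For MPP4 against MPP1, in place of 3, it was 5 with the stricter filter, 1 with no replicate block and 5 without those 6 libraries. The median difference of mutant effects, MPP4 minus MPP1, ran from 0.12 to 0.53 without each ID number. The causes were not tested, and the shares of all genes that passed under these alternatives are not given here. With the replicate block, 0 members passed in HSC (median 0.47), MPP1 (-0.10) and MPP4 (0.24), as without it. Replicate-number correlations were 0.175 in MPP1 and -0.022 to 0.342 in MPP4. In all, 260 of 274 summary values and 407 of 452 values of named members under alternatives kept their call or, for counts and medians, stayed close to the reported value. Between populations these totals include the fits without the ID number of MPP4 mutant 2 or MPP4 control 2, which could hardly move. No call reversed, but 7 medians near 0 changed sign: MPP1 mutants against controls as given above, MPP1 against HSC over controls alone (0.06), and MPP4 against HSC in 5 alternatives (0.001 to 0.0513). Depth limits low members: Cox4i2 and Cox7a1 were below the filter in every comparison.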
